A study of Arabidopsis thaliana with 12 samples.

Results

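The drought and abscisic acid responsive genes of Arabidopsis thaliana described here are 38 loci taken by their AGI codes from the 27588 genes of a whole-seedling RNA-seq table. They comprise the ABF and ABI5 transcription factors, the regulators around them, and the RD29, dehydrin, late embryogenesis abundant (LEA), proline, galactinol, lipid transfer and other genes known as their responsive sets. All 38 codes were found in the table and all 38 passed the filter on low counts, which left 21235 genes. EM1 and LTP4 reached the count level of the filter in all 3 libraries of the PIF3 over-expression line and of no other genotype, and ABR1 did so in none.

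The libraries came from whole seedlings of 4 genotypes in the Columbia 0 ecotype, with 3 libraries each. Beside wild-type Col-0 these were the cfh1 mutant, a line carrying a CFH1 decoy, and a line over-expressing PIF3. All 4 spent 7 days in 12 h of light and 12 h of dark and then stayed in constant red light until day 12, when they were harvested at zeitgeber time 1. The series title ties CFH1 to the circadian clock and to red-light development, and PIF3 is a phytochrome-interacting basic helix-loop-helix factor. The labels do not give the promoter of either transgene, the number of independent lines or whether the libraries of a genotype are separate cultures, so the p-values below rest on a spread between libraries that may be technical. The titles of the PIF3 libraries say mutant while their genotype says over-expression. PIF3 mRNA was at least 348 CPM (counts scaled to a common library size) in those libraries and at most 43.3 CPM elsewhere, on the side of the genotype field. With 1 harvest time, a change in level cannot be told apart from a change in the timing of a daily cycle.

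Abscisic acid (ABA) accumulates in plants that lose water. Bound to PYR and PYL receptors it holds back PP2C phosphatases, which frees SnRK2 kinases to phosphorylate the ABF and ABI5 basic leucine zipper factors. These bind the ABA-responsive element (ABRE), whose core reads ACGTG, and switch on genes for dehydrins and other LEA proteins, which protect proteins and membranes in drying cells, and for enzymes that make compatible solutes such as proline and galactinol. A second route runs through DREB factors and the dehydration-responsive element, with the core CCGAC. PIF3 and its relatives bind the G-box, CACGTG, which contains the ABRE core.

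Promoter sequences were read for all 38 members from the TAIR10.1 reference genome (RefSeq) as the 250 bases before the annotated start of each gene. Matches were sought on both strands, and overlapping matches of a motif were counted once. ACGTG was found in 23 of 38 windows (60.5%), against 22.9% of the windows of 27443 protein-coding genes. CACGTG was found in 12 (31.6%, against 6.49%), and each such match also counts as an ACGTG match. CCGAC was found in 14 (36.8%, against 12.0%). CACATG, another PIF-bound word, was found in 5 (13.2%, against 11.1%). A match in a window describes its letters and shows no binding. The 5 windows below belong to genes whose values recur in the results, and show windows with many ABRE cores, with dehydration-responsive cores, with G-boxes and with none of these. Capitals mark ACGTG and CCGAC in either orientation, and the G-box where ACGTG lies on both strands.
RD29B (chr5:21236771-21237020, plus strand): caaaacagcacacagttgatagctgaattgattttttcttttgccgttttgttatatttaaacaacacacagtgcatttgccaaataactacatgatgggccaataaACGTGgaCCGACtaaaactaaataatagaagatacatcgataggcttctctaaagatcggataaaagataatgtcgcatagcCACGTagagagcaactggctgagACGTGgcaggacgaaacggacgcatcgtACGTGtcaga
RD29A (chr5:21240467-21240716, plus strand): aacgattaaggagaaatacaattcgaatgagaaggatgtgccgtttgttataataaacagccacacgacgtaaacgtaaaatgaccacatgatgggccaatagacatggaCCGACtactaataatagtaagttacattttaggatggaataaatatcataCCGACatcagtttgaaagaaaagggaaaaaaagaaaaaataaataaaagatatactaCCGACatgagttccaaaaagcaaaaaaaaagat
LEA7 (chr1:19619474-19619723, plus strand): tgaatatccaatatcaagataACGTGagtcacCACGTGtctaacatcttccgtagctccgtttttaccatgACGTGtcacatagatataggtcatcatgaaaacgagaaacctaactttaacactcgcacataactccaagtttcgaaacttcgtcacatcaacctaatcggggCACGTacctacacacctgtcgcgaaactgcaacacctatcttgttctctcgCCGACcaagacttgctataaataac
AFP3 (chr3:11384146-11384395, minus strand): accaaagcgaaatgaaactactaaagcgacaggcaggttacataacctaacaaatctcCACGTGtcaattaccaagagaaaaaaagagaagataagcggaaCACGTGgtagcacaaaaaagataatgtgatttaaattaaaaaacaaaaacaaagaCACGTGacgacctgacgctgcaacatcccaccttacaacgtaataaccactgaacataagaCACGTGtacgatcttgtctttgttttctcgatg
HB7 (chr2:19166968-19167217, minus strand): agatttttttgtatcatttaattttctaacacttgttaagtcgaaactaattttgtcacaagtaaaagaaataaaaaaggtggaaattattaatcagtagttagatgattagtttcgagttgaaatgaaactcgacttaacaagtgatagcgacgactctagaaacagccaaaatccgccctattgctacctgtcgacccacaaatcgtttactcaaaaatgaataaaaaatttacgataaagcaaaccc
RD29B holds 4 ABRE cores and 1 dehydration-responsive core, and its neighbour RD29A holds 3 dehydration-responsive cores and no ABRE core in this window. LEA7 holds 4 ABRE cores, 1 of them a G-box. AFP3 holds 4 ABRE cores, each of them a G-box, and HB7 holds neither core.

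Library totals ran from 21914548 to 34345371 counts. The libraries of a genotype did not behave alike for these genes. PIF3 over-expression replicate 1 was the highest of its 3 libraries for 33 of 38 members, against 37.8% of all genes, and Col-0 replicate 3 was the highest of its 3 for 34 of 38, against 38.7% of all genes. The members summed to 1442.6, 1377.1 and 2256.8 CPM in Col-0 replicates 1, 2 and 3, to 1636.3, 1481.6 and 1583.2 CPM in the cfh1 mutant and to 2086.6, 1681.7 and 1793.2 CPM in the decoy line. With PIF3 over-expression they summed to 11738, 4557.2 and 4777.7 CPM, which is 1.17%, 0.456% and 0.478% of the library. The decoy line differed from Col-0 across the genome, and 211 genes called lower there had 3 counts or fewer in the line. Values without the Col-0 or the PIF3 over-expression library named here are given beside the results they change.

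Most of these genes were higher with PIF3 over-expression. Against Col-0, 32 of 38 members were higher and 0 were lower at an adjusted p under 0.05, where 6% of all genes tested were higher and 7.32% lower. The median log2 fold change of the members was 1.77, and that of all genes was 0.00 to 2 decimals. For 25 members the rise was at least 1 on the log2 scale, against 2.46% of all genes, and for 0 members was there a fall of that size, against 2.09%. For 35 members every PIF3 over-expression library lay above every Col-0 library, against 19.9% of all genes. The 6 members that did not pass the test were ABF1, ANAC055, ABR1, EM1, P5CS2 and ERD5, and ERD5, which breaks proline down, was the single member below Col-0. At 0 lower calls, edgeR's unadjusted p was under 0.05 for 1 member, and DESeq2 called 1 member lower, in both cases ERD5. In whole seedlings, a change in the number of cells that express a gene and a change in the RNA per cell cannot be told apart.

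Without PIF3 over-expression replicate 1, 21 members were called higher, and without Col-0 replicate 1 there were 19. The share of all genes called higher fell as well, to 2.54% and 1.93%. Without PIF3 over-expression replicate 1 and Col-0 replicate 3 together, an alternative chosen after seeing the data, 23 were called higher (2.41% of all genes), 37 of 38 log2 fold changes were above 0 and their median was 1.64. Leaving out either Col-0 replicate 1 or PIF3 over-expression replicate 1 ended the calls of ABI5, ANAC019, RAB18, ERD10, LTI30, XERO1, LEA4-1, LEA18, GOLS1, LTP4 and TSPO, and leaving out Col-0 replicate 1 also ended those of LEA7 and EM6. The 9 members that lost their call without both libraries that stand apart were ABI5, ANAC019, ERD10, LTI30, XERO1, LEA4-1, LEA18, EM6 and GOLS1.

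Part of the group differed in the decoy line, with more members lower than higher. Against Col-0, 3 members were higher (GOLS1, GOLS2 and RD22), where 19.6% of all genes were higher. A further 10 members were lower (AFP1, AFP3, HB7, HB12, ERD10, LTI30, LEA7, LEA4-5, LEA4-1 and ERD5), where 21.2% of all genes were lower. As a share of the 38, the count above Col-0 is below that of all genes and the count below Col-0 is near it. These shares depend on the scaling: with library totals alone 8.1% of all genes were higher and 32.6% lower, and 2 members were higher and 13 lower. Changes of at least 1 on the log2 scale were called upward for 2 members and downward for 7, against 3.86% and 10.2% of all genes. The median log2 fold change of the members was -0.40, and that of all genes was 0.00. Libraries did not overlap for 4 members above Col-0 and 14 below it, against 25% and 26.8% of all genes. Col-0 replicate 3 weighs on these counts: without it, 5 members were higher and 5 lower, and the median was -0.03. In that fit 16% of all genes were higher and 17.9% lower. Without Col-0 replicate 1, or without decoy replicate 3, 1 member was higher (RD22), where 13.2% and 17% of all genes were higher. HB7, HB12, AFP3, ERD5 and RD22 kept their calls in the decoy line with any library left out. AFP1, ERD10, LTI30, LEA7 and LEA4-5 lost theirs without Col-0 replicate 3. ERD10 also did without Col-0 replicate 1, and ERD10, LTI30 and LEA4-5 did without decoy replicate 1. LEA4-5 and LEA4-1 did without decoy replicate 2, and LEA4-1 did without Col-0 replicate 2 or decoy replicate 3.

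In the cfh1 mutant 0 members were called higher and 0 lower, where 0.0141% and 0.0565% of all genes were called. edgeR's unadjusted p was under 0.05 for 0 members above and 1 below Col-0, LTP4, where 2.11% and 2.43% of all genes had such a p, and DESeq2 called 0 in each direction. Libraries did not overlap for HB12 and ERD10 (2 of 38), both below Col-0, against 7.03% of all genes, and for 0 members above Col-0, against 7.88%. The log2 fold changes ran from -3.19 (LTP4) to 0.69 (LEA18), with a median of -0.11. LTP4 had 19.5 CPM in Col-0 replicate 3 and 0.230 and 0.733 in the other Col-0 libraries. LEA18 had 5.25 CPM in cfh1 replicate 3 and 1.34 and 0.898 in the other cfh1 libraries. Without Col-0 replicate 3 the median was 0.11 and again 0 members were called. Without cfh1 replicate 3 the median was -0.25, also with 0 members called. The comparisons with Col-0 share the Col-0 libraries, so their values are given side by side below.

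**Figure D1:**
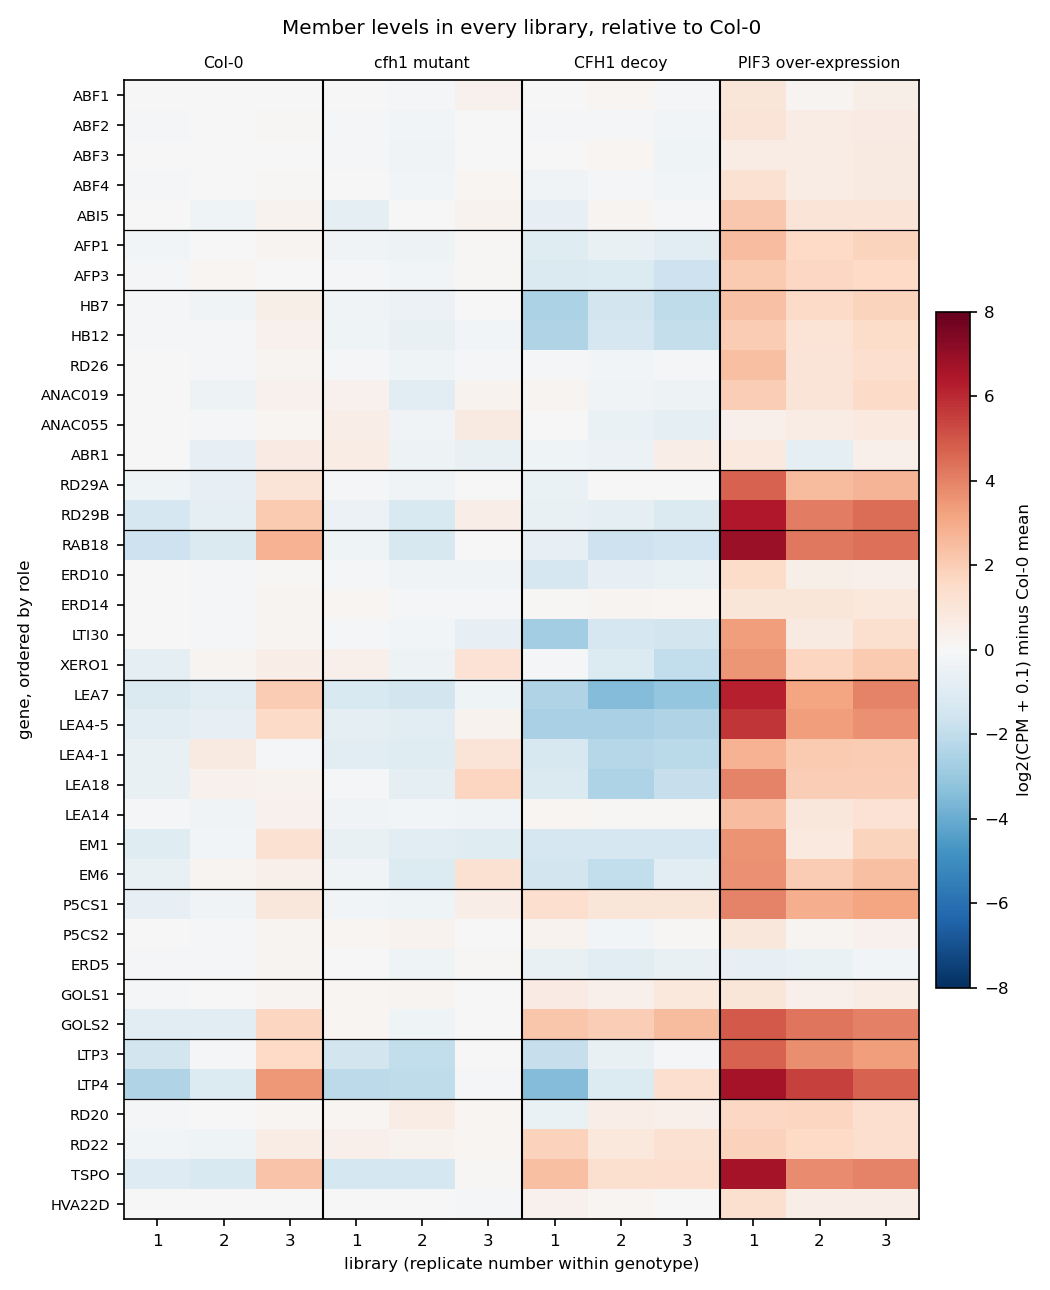
Level of the 38 genes (rows, ordered by role, lines between roles) in each of the 12 libraries (columns), as log2(CPM + 0.1) minus the mean of the 3 Col-0 libraries, red above and blue below Col-0. The PIF3 over-expression columns are red for most genes, most deeply in replicate 1. Col-0 replicate 3 is redder than the other 2 Col-0 columns for RAB18, LEA7, LTP4 and TSPO.

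Of the factors at the head of the response, ABF1 to ABF4 changed by small amounts. ABF1 (AT1G49720), ABF2 (AT1G45249), ABF3 (AT4G34000) and ABF4 (AT3G19290) are the basic leucine zipper factors that bind ABREs in seedlings. With PIF3 over-expression ABF2, ABF3 and ABF4 rose, with log2 fold changes of 0.79 (SE 0.12, adjusted p = 0.00269), 0.65 (SE 0.13, adjusted p = 0.00792) and 0.87 (SE 0.16, adjusted p = 0.00555). ABF1 stood at 0.57 (SE 0.18, adjusted p = 0.0513) and did not pass, although its 3 PIF3 over-expression libraries, at 20.9 to 34.8 CPM, lay above the 17.7 to 18.5 CPM of Col-0. None of the 4 passed in the decoy line, where their log2 fold changes ran from -0.20 to -0.01, or in the cfh1 mutant. ABF1, ABF3 and ABF4 overlap a gene on the opposite strand, and how the counting treated strand is not given in the sources used here.

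ABI5 (AT2G36270), best known from seeds and germinating seedlings, was the scarcest of the 5. It was counted at 2.12, 1.64 and 2.58 CPM in Col-0, 1.24, 2.02 and 2.56 in the cfh1 mutant, 1.27, 2.45 and 1.98 in the decoy line and 9.73, 4.38 and 4.33 with PIF3 over-expression. All 3 PIF3 over-expression libraries were above all 9 others, and the other 3 genotypes overlapped. Its log2 fold change against Col-0 was 1.54 (SE 0.37, adjusted p = 0.0162) with PIF3 over-expression, and 1.05 (adjusted p = 0.0902) without replicate 1 of that line.

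AFP1 and AFP3 encode ABI5-binding proteins, which damp ABA responses. They went in opposite directions in the 2 transgenic lines. AFP1 (AT1G69260) was counted at 8.52, 10.15 and 11.9 CPM in Col-0, 8.27, 7.59 and 10.6 in the cfh1 mutant, 5.18, 6.67 and 5.45 in the decoy line and 56.3, 30.4 and 34.5 with PIF3 over-expression. AFP3 (AT3G29575) was counted at 14.0, 16.8 and 15.5 CPM in Col-0, 13.7, 13.4 and 16.4 in the cfh1 mutant, 6.79, 7.07 and 4.89 in the decoy line and 67.3, 47.9 and 47.6 with PIF3 over-expression. For both genes every decoy library lay below, and every PIF3 over-expression library above, every Col-0 and cfh1 library. Against Col-0, AFP1 had a log2 fold change of 1.99 (SE 0.22, adjusted p = 0.000606) with PIF3 over-expression and of -0.81 (SE 0.23, adjusted p = 0.0144) in the decoy line. AFP3 had values of 1.81 (SE 0.17, adjusted p = 0.000149) and -1.31 (SE 0.18, adjusted p = 0.000123). The fall of AFP3 in the decoy line held without Col-0 replicate 3, at -1.31 (adjusted p = 0.000652), whereas that of AFP1 then stood at -0.69 (adjusted p = 0.0542). AFP1 overlaps a gene on the opposite strand.

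HB7 and HB12 are a pair of related homeodomain-leucine zipper genes that ABA and drought induce. HB7 (AT2G46680) was counted at 54.3, 49.7 and 83.9 CPM in Col-0, 50.1, 45.0 and 59.8 in the cfh1 mutant, 10.2, 21.5 and 14.7 in the decoy line and 308, 174 and 213 with PIF3 over-expression. HB12 (AT3G61890) was counted at 28.8, 27.9 and 39.5 CPM in Col-0, 24.7, 21.1 and 27.6 in the cfh1 mutant, 5.87, 12.3 and 8.43 in the decoy line and 128, 68.6 and 88.1 with PIF3 over-expression. Neither gene showed an overlap between the decoy line, Col-0 and PIF3 over-expression, in that rising order, while cfh1 libraries lay within or just under Col-0. The means of HB7 were 15.5 ± 5.67 CPM in the decoy line, 62.6 ± 18.6 in Col-0 and 232 ± 69.2 with PIF3 over-expression (SD, n = 3). Its log2 fold changes against Col-0 were -2.01 (SE 0.29, adjusted p = 0.000199) in the decoy line and 1.89 (SE 0.28, adjusted p = 0.00215) with PIF3 over-expression. HB12 had -1.83 (SE 0.27, adjusted p = 0.000243) and 1.57 (SE 0.26, adjusted p = 0.00341). Both genes kept both calls without Col-0 replicate 3, with decoy values of -1.74 (adjusted p = 0.000952) for HB7 and -1.65 (adjusted p = 0.00135) for HB12. No window of 250 bases before either gene holds ACGTG or CCGAC.

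The NAC factors RD26 and ANAC019, which respond to drought, ABA and jasmonate, rose with PIF3 over-expression. RD26 (AT4G27410) was counted at 11.6, 10.5 and 13.5 CPM in Col-0, 11.03, 9.31 and 10.8 in the cfh1 mutant, 11.3, 10.3 and 10.6 in the decoy line and 62.0, 24.7 and 30.4 with PIF3 over-expression. ANAC019 (AT1G52890) was counted at 1.06, 0.763 and 1.31 CPM in Col-0, 1.31, 0.524 and 1.28 in the cfh1 mutant, 1.21, 0.806 and 0.728 in the decoy line and 4.29, 2.18 and 3.12 with PIF3 over-expression. Both were above all other libraries in all 3 PIF3 over-expression libraries and overlapped among the other genotypes. Their log2 fold changes were 1.72 (SE 0.27, adjusted p = 0.0026) and 1.62 (SE 0.37, adjusted p = 0.0144), and neither passed in the decoy line. ANAC055, the close relative of ANAC019, had 0.62 (SE 0.25, adjusted p = 0.13) with PIF3 over-expression. ABR1, an ERF factor named as a repressor of ABA responses, stayed between 0.239 and 0.903 CPM in all 12 libraries.

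The RD29 genes are the classic reporters of the pathway and lie in tandem on chromosome 5, RD29B at chr5:21237021-21239531 and RD29A at chr5:21240717-21243644 in TAIR10.1, 1185 bases apart. RD29A (AT5G52310) was counted at 25.9, 21.0 and 68.8 CPM in Col-0, 29.6, 28.1 and 32.4 in the cfh1 mutant, 23.6, 33.7 and 32.2 in the decoy line and 899, 198 and 222 with PIF3 over-expression. RD29B (AT5G52300) was counted at 3.13, 4.87 and 36.4 CPM in Col-0, 5.999, 3.48 and 11.9 in the cfh1 mutant, 5.46, 4.71 and 3.57 in the decoy line and 706, 144 and 188 with PIF3 over-expression. PIF3 over-expression replicate 1 was several times the other 2 libraries of its line for both genes, and Col-0 replicate 3 stood above the other 2 Col-0 libraries. All 3 PIF3 over-expression libraries lay above all 9 others, and the other genotypes overlapped. With PIF3 over-expression RD29A rose by a log2 fold change of 3.51 (SE 0.57, adjusted p = 0.00341) and RD29B by 4.56 (SE 0.89, adjusted p = 0.00725). Without PIF3 over-expression replicate 1 and Col-0 replicate 3 the values were 3.17 (adjusted p = 2.54e-05) and 5.38 (adjusted p = 0.000298). In the decoy line neither passed, and the sign turned with Col-0 replicate 3: RD29B had -1.69 (SE 0.86, adjusted p = 0.133) with it and 0.18 (adjusted p = 0.855) without it.

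Dehydrins are hydrophilic LEA proteins of group 2. RAB18, the ABA-responsive dehydrin, was counted at 8.78, 12.1 and 191 CPM in Col-0, 21.3, 11.1 and 26.3 in the cfh1 mutant, 17.3, 8.65 and 9.57 in the decoy line and 3295, 515 and 577 with PIF3 over-expression. Its 3 PIF3 over-expression libraries were above all others, and Col-0 replicate 3 was far above both other Col-0 libraries. The log2 fold change with PIF3 over-expression was 4.37 (SE 1.10, adjusted p = 0.0209), and 5.71 (adjusted p = 0.000178) without that Col-0 library and PIF3 over-expression replicate 1. Without the latter alone it was 2.95 (adjusted p = 0.103), and the call was also lost without Col-0 replicate 1 or 2. In the decoy line RAB18 stood at -2.59 (SE 1.05, adjusted p = 0.0637), and without Col-0 replicate 3 at 0.16 (adjusted p = 0.876). It passed as lower there without Col-0 replicate 1, without Col-0 replicate 2, without PIF3 over-expression replicate 1 and when scaled by library totals. RAB18 overlaps a gene on the opposite strand.

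LTI30 and XERO1 are dehydrin genes that neighbour each other, 313 bases apart, on chromosome 3. LTI30 (AT3G50970) was counted at 66.0, 59.3 and 78.3 CPM in Col-0, 59.5, 56.8 and 42.6 in the cfh1 mutant, 9.66, 26.8 and 24.5 in the decoy line and 671, 111 and 165 with PIF3 over-expression. XERO1 (AT3G50980) was counted at 0.316, 0.675 and 0.859 CPM in Col-0, 0.793, 0.411 and 1.403 in the cfh1 mutant, 0.518, 0.217 and 0.0694 in the decoy line and 7.76, 2.15 and 2.78 with PIF3 over-expression. LTI30 fell in the decoy line and rose with PIF3 over-expression, with no overlap with Col-0 in either, while XERO1 was above all other libraries with PIF3 over-expression and overlapped Col-0 in the decoy line. LTI30 had log2 fold changes of -1.73 (SE 0.55, adjusted p = 0.0237) in the decoy line and 2.22 (SE 0.55, adjusted p = 0.019) with PIF3 over-expression. XERO1 had 2.79 (SE 0.61, adjusted p = 0.0119) with PIF3 over-expression. Without PIF3 over-expression replicate 1 the rises stood at 1.02 (adjusted p = 0.089) for LTI30 and 2.01 (adjusted p = 0.0656) for XERO1, and without Col-0 replicate 3 the fall of LTI30 in the decoy line stood at -1.61 (adjusted p = 0.0599).

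ERD10 and ERD14, abundant acidic dehydrins, moved less. ERD14 had a mean of 407 ± 58.0 CPM in Col-0 and 778 ± 35.9 with PIF3 over-expression (SD, n = 3), a log2 fold change of 0.94 (SE 0.13, adjusted p = 0.00156), and its spread between libraries was small. ERD10 had 0.87 (SE 0.26, adjusted p = 0.0471) with PIF3 over-expression and -0.81 (SE 0.27, adjusted p = 0.028) in the decoy line. The rise of ERD10 lost its call in 10 of 21 alternatives, with an adjusted p of 0.258 without the pair of libraries named above.

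**Figure D2:**
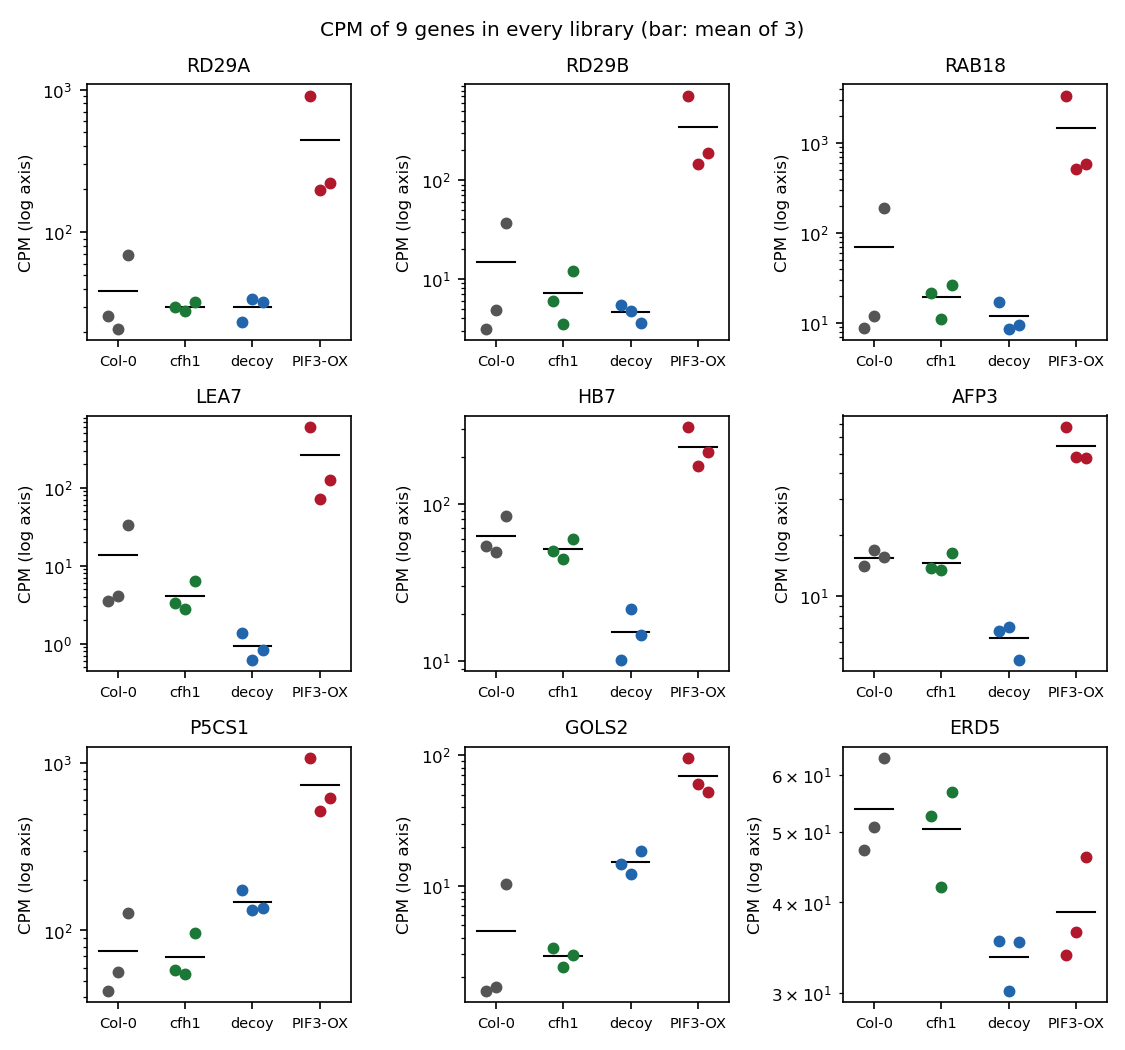
CPM on a log axis in each library (points) of Col-0, the cfh1 mutant, the decoy line and the PIF3 over-expression line (PIF3-OX), with a bar at the mean of 3, for 9 genes. HB7 and AFP3 lie lower in the decoy line and higher with PIF3 over-expression, GOLS2 and P5CS1 lie higher in both, and RAB18 in Col-0 spreads from 8.78 to 191 CPM.

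The other LEA genes included both large rises and large falls. LEA7 and LEA4-5 belong to groups of LEA proteins that accumulate in drying leaves and seeds. LEA7 (AT1G52690) was counted at 3.56, 4.11 and 33.2 CPM in Col-0, 3.34, 2.77 and 6.28 in the cfh1 mutant, 1.38, 0.62 and 0.832 in the decoy line and 602, 72.1 and 127 with PIF3 over-expression. LEA4-5 (AT5G06760) was counted at 2.04, 2.46 and 11.7 CPM in Col-0, 2.28, 2.06 and 4.82 in the cfh1 mutant, 0.575, 0.558 and 0.659 in the decoy line and 207, 40.5 and 50.5 with PIF3 over-expression. Decoy libraries were below, and PIF3 over-expression libraries above, all libraries of Col-0 and the cfh1 mutant for both genes. LEA7 had log2 fold changes of -3.92 (SE 1.10, adjusted p = 0.0132) in the decoy line and 4.31 (SE 0.92, adjusted p = 0.0102) with PIF3 over-expression, and LEA4-5 had -3.14 (SE 0.93, adjusted p = 0.0176) and 4.22 (SE 0.73, adjusted p = 0.00426). Without Col-0 replicate 3 the decoy values were -2.10 (adjusted p = 0.0908) and -1.90 (adjusted p = 0.1), so that neither fall passed. LEA7 overlaps a gene on the opposite strand.

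LEA4-1 and LEA18 were scarce outside the PIF3 over-expression line. LEA4-1 (AT1G32560) was counted at 0.603, 1.64 and 0.927 CPM in Col-0, 0.483, 0.449 and 2.14 in the cfh1 mutant, 0.345, 0.124 and 0.139 in the decoy line and 7.31, 4.41 and 4.36 with PIF3 over-expression. LEA18 (AT2G35300) was counted at 0.947, 1.97 and 1.82 CPM in Col-0, 1.34, 0.898 and 5.25 in the cfh1 mutant, 0.633, 0.186 and 0.347 in the decoy line and 24.8, 6.32 and 6.27 with PIF3 over-expression. PIF3 over-expression libraries were above all others, decoy libraries were below all Col-0 libraries, and cfh1 replicate 3 was above Col-0 for both. LEA4-1 had -2.50 (SE 0.72, adjusted p = 0.0154) in the decoy line and 2.34 (SE 0.54, adjusted p = 0.0141) with PIF3 over-expression. LEA18 had 2.985 (SE 0.68, adjusted p = 0.0135) with PIF3 over-expression and did not pass in the decoy line, at -2.13 (SE 0.87, adjusted p = 0.0662). Without PIF3 over-expression replicate 1 the rises stood at 2.05 (adjusted p = 0.0656) and 1.998 (adjusted p = 0.0766).

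LEA14, an atypical LEA protein, was counted at 30.9, 27.3 and 41.4 CPM in Col-0, 26.9, 27.9 and 27.1 in the cfh1 mutant, 36.2, 34.5 and 35.3 in the decoy line and 180.2, 62.0 and 72.6 with PIF3 over-expression. It was above all others in the PIF3 over-expression libraries, with a log2 fold change of 1.66 (SE 0.31, adjusted p = 0.00628), and 1.21 (adjusted p = 0.000504) without the pair of libraries that stand apart.

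EM1 and EM6 encode the small LEA proteins of maturing embryos. EM6 (AT2G40170) was counted at 0.402, 0.792 and 0.893 CPM in Col-0, 0.517, 0.262 and 1.68 in the cfh1 mutant, 0.173, 0.093 and 0.312 in the decoy line and 9.68, 3.01 and 4.02 with PIF3 over-expression. It rose with PIF3 over-expression, at 3.005 (SE 0.61, adjusted p = 0.00833), with all 3 libraries above all others. EM6 lost this call without Col-0 replicate 1 and without the pair of libraries that stand apart. Its counts were low, at 14, 27 and 26 in Col-0 and 3, 3 and 9 in the decoy line. EM1 had 1, 4 and 14 counts in Col-0, 2, 1 and 1 in the cfh1 mutant, 0 in each decoy library and 105, 11 and 27 with PIF3 over-expression. Against a floor of 3 counts over the decoy libraries, EM1 was at least 5.07-fold lower in the decoy line than in Col-0 and at least 35.3-fold lower than with PIF3 over-expression. These bounds rest largely on 1 library each: they became 1.90-fold without Col-0 replicate 3 and 14.2-fold without PIF3 over-expression replicate 1. The test did not pass for EM1 with PIF3 over-expression against Col-0 (adjusted p = 0.0684), where replicate 2 lay within the Col-0 range. Seed storage and oil body markers were scarce, and their sum was also highest in PIF3 over-expression replicate 1. OLEO2, OLEO5 and CRA1, with 168, 81 and 65 counts in that library, carry the sum. At2S1, At2S2, At2S4 and CRB were instead highest in replicate 2 or 3 of that line. The 10 of the list summed to 10.2, 3.64 and 3.57 CPM with PIF3 over-expression and to 0.230 to 3.75 CPM in the other 9 libraries. The storage protein gene At2S3 had 0 counts in all 12, 6 to 8 of the 10 were detected in the PIF3 over-expression libraries, and of the 3 markers that could be tested the oleosin gene OLEO2 rose, at 2.70 (SE 0.75, adjusted p = 0.0319). Their part in the EM1 and EM6 values was not tested. Median log2 fold changes of the 7 genes LEA7 to EM6 were 2.985 with PIF3 over-expression and -2.50 in the decoy line, or -2.34 with EM1 set at its bound.

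Proline made from glutamate is a compatible solute in drought. P5CS1, the stress-induced synthase of that route, was counted at 43.6, 56.7 and 127 CPM in Col-0, 58.1, 54.6 and 96.8 in the cfh1 mutant, 175, 133 and 136 in the decoy line and 1073, 520.3 and 619 with PIF3 over-expression. It was highest with PIF3 over-expression, and its decoy libraries also lay above all Col-0 libraries. The log2 fold change with PIF3 over-expression was 3.29 (SE 0.40, adjusted p = 0.000874). In the decoy line it was 0.97 (SE 0.37, adjusted p = 0.0543), and 1.56 (adjusted p = 0.00472) without Col-0 replicate 3. P5CS2, its housekeeping relative, had 0.52 (SE 0.19, adjusted p = 0.0878) and 0.06 (SE 0.19, adjusted p = 0.824) in the same order. ERD5, a proline dehydrogenase that breaks proline down, was counted at 47.2, 50.9 and 63.2 CPM in Col-0, 52.5, 42.0 and 56.8 in the cfh1 mutant, 35.4, 30.2 and 35.3 in the decoy line and 33.9, 36.5 and 46.2 with PIF3 over-expression. It was below Col-0 in all 3 libraries of both transgenic lines, with -0.68 (SE 0.15, adjusted p = 0.00439) in the decoy line and -0.47 (SE 0.15, adjusted p = 0.0621), which did not pass, with PIF3 over-expression. P5CS1 and P5CS2 overlap genes on the opposite strand.

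GOLS1 and GOLS2 make galactinol, the precursor of the raffinose sugars. They rose in both transgenic lines. GOLS2 (AT1G56600) was counted at 1.58, 1.70 and 10.4 CPM in Col-0, 3.38, 2.39 and 2.99 in the cfh1 mutant, 14.7, 12.4 and 18.3 in the decoy line and 94.9, 60.6 and 52.3 with PIF3 over-expression. Every decoy library was above every Col-0 and cfh1 library, and every PIF3 over-expression library above every decoy library. Against Col-0 its log2 fold changes were 1.76 (SE 0.54, adjusted p = 0.0203) in the decoy line and 3.95 (SE 0.56, adjusted p = 0.00175) with PIF3 over-expression, and between these lines, decoy minus PIF3 over-expression, -2.19 (SE 0.51, adjusted p = 0.0042). Without Col-0 replicate 3 the decoy value was 3.20 (adjusted p = 1.67e-05), and it did not pass without Col-0 replicate 1, Col-0 replicate 2 or decoy replicate 3, or with only the 2 genotypes in the fit. GOLS1 moved by 0.64 (SE 0.18, adjusted p = 0.0131) and 0.66 (SE 0.18, adjusted p = 0.0266), and the opposite strand holds an overlapping gene there. Its decoy call was lost without Col-0 replicate 1, without decoy replicate 3 and when scaled by library totals, and its PIF3 over-expression call without Col-0 replicate 2 as well as the libraries named above.

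LTP3 and LTP4, a pair of lipid transfer protein genes 2996 bases apart, encode small secreted proteins of the epidermis and cuticle. LTP3 (AT5G59320) was counted at 2.70, 7.16 and 24.0 CPM in Col-0, 2.69, 1.91 and 7.66 in the cfh1 mutant, 2.13, 5.05 and 6.90 in the decoy line and 211, 105 and 79.1 with PIF3 over-expression. LTP4 (AT5G59310) was counted at 0.23, 0.733 and 19.5 CPM in Col-0, 0.31, 0.337 and 1.46 in the cfh1 mutant, 0.0575, 0.713 and 4.37 in the decoy line and 174, 79.1 and 46.7 with PIF3 over-expression. Both were above all other libraries with PIF3 over-expression, and both spread widely in the other genotypes, LTP4 from 0.230 to 19.5 CPM in Col-0. The rises were 3.56 (SE 0.71, adjusted p = 0.00773) and 3.90 (SE 1.14, adjusted p = 0.0387), and 4.22 (adjusted p = 0.00723) and 7.02 (adjusted p = 0.00707) without the pair of libraries that stand apart. DESeq2 did not call LTP4, and edgeR lost the call when replicate 1 or replicate 2 of Col-0, of the cfh1 mutant or of the PIF3 over-expression line was left out. In the decoy line LTP4 stood at -1.87 (SE 1.24, adjusted p = 0.245) with Col-0 replicate 3 and at 1.93 (adjusted p = 0.222) without it.

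Among the remaining responsive genes, TSPO, an ABA-induced membrane protein, was among the members with the largest fold changes with PIF3 over-expression. TSPO (AT2G47770) was counted at 0.459, 0.411 and 5.46 CPM in Col-0, 0.345, 0.337 and 1.13 in the cfh1 mutant, 6.16, 2.70 and 2.81 in the decoy line and 116, 15.8 and 18.3 with PIF3 over-expression. PIF3 over-expression libraries were above all others, and decoy libraries were above Col-0 replicates 1 and 2 and overlapped replicate 3. The log2 fold change was 4.61 (SE 0.97, adjusted p = 0.00967) with PIF3 over-expression, and 5.28 (adjusted p = 0.000979) without the pair of libraries that stand apart. The call was lost without PIF3 over-expression replicate 1 alone and without Col-0 replicate 1 alone. In the decoy line the log2 fold change was 0.88 (SE 0.97, adjusted p = 0.491), and 3.10 (adjusted p = 0.0431) without Col-0 replicate 3.

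RD22, a BURP domain protein, was counted at 211, 190.4 and 374 CPM in Col-0, 329.8, 304 and 277 in the cfh1 mutant, 870.2, 439.7 and 564 in the decoy line and 903, 747 and 639 with PIF3 over-expression. Its libraries were above all Col-0 libraries in both transgenic lines. The log2 fold changes were 1.27 (SE 0.28, adjusted p = 0.00327) in the decoy line and 1.56 (SE 0.28, adjusted p = 0.00489) with PIF3 over-expression, and both held without Col-0 replicate 3. RD20, a caleosin, was counted at 5.51, 5.90 and 6.87 CPM in Col-0, 6.79, 9.12 and 6.80 in the cfh1 mutant, 4.14, 8.90 and 8.22 in the decoy line and 19.2, 20.4 and 15.5 with PIF3 over-expression. It was even across the PIF3 over-expression libraries, above all others, with 1.59 (SE 0.24, adjusted p = 0.00217). HVA22D had 0.83 (SE 0.17, adjusted p = 0.00828) and did not pass in the decoy line.

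**Figure D3:**
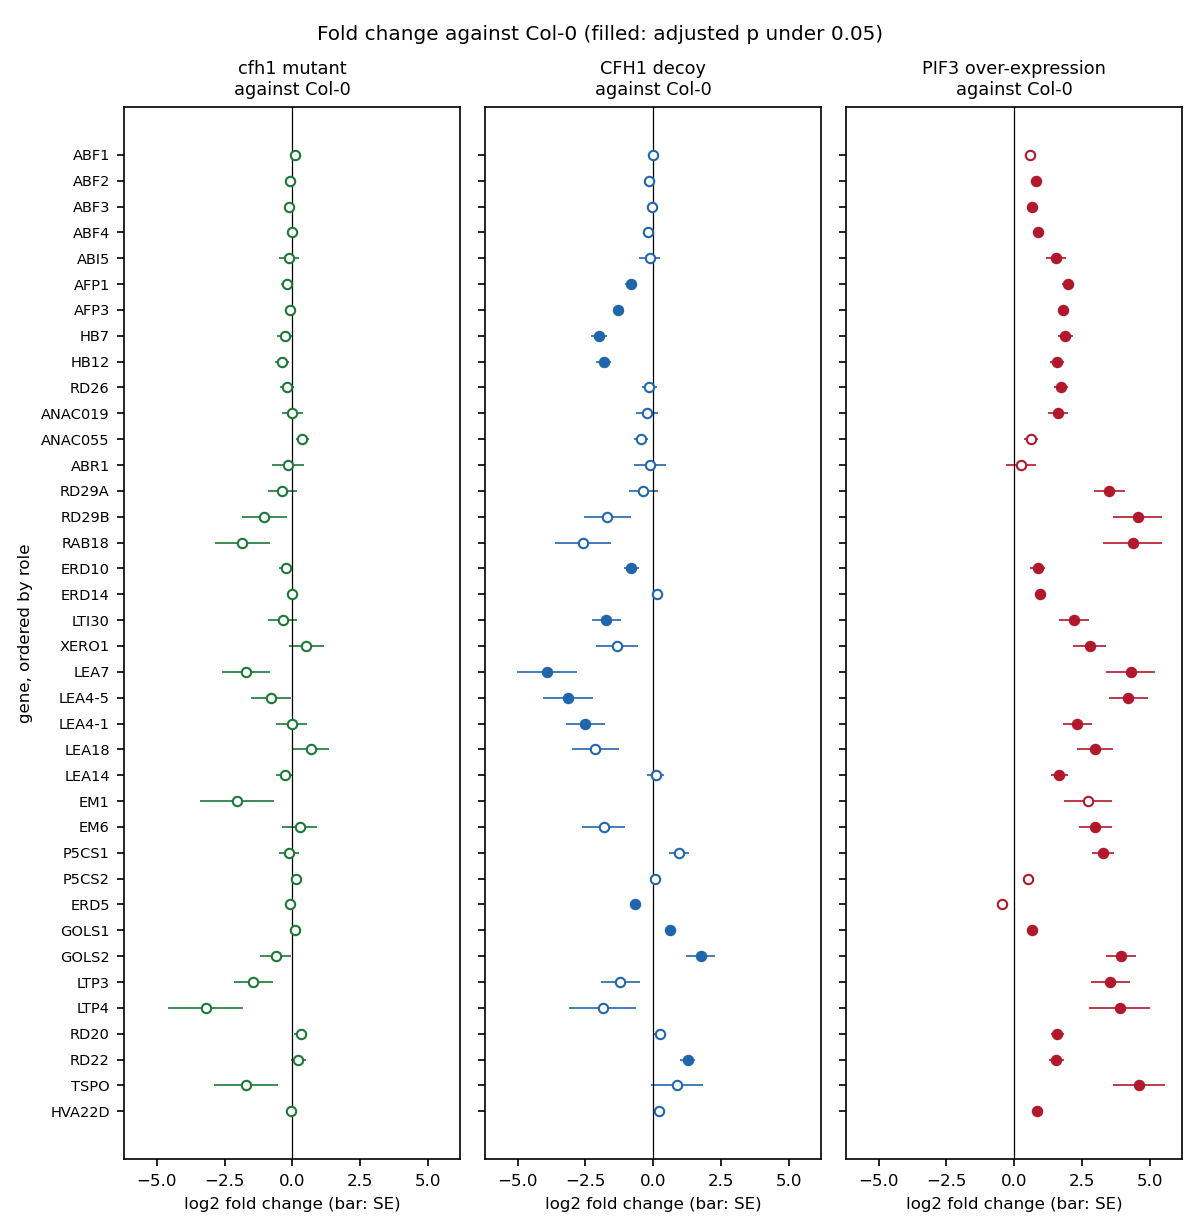
Log2 fold change against Col-0 (x axis) with its SE (bar) for each gene (rows) in the cfh1 mutant, the decoy line and the PIF3 over-expression line, filled where the adjusted p was under 0.05. EM1 is left out of the decoy panel, where it had 0 counts. Filled points number 0 in the cfh1 panel, 13 in the decoy panel and 32 in the PIF3 over-expression panel.

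The test of the transgenic lines against each other does not use Col-0. There, 33 members were lower in the decoy line than with PIF3 over-expression and 0 were higher, where 22.7% and 20.5% of all genes were called. At 0 higher calls, edgeR's unadjusted p was under 0.05 for 0 members and DESeq2 called 0. The 5 members that did not pass were ABR1, P5CS2, ERD5, GOLS1 and RD22. The median log2 difference of the members was -1.92 without PIF3 over-expression replicate 1. With any other library left out it ran from -2.40 to -2.16. HB7 differed by -3.89 (SE 0.31, adjusted p = 1.35e-06), AFP3 by -3.12 (SE 0.18, adjusted p = 6.88e-08) and LEA4-5 by -7.36 (SE 0.93, adjusted p = 5.61e-05) on the log2 scale, decoy minus PIF3 over-expression.

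The cfh1 mutant and the decoy line, both named for CFH1, were also compared. In the main edgeR fit the shares of members called were near or below those of all genes, and other fits moved these counts. In the cfh1 mutant 7 members were higher than in the decoy line (AFP3, HB7, HB12, ANAC055, LEA4-1, LEA18 and ERD5), where 18.2% of all genes were higher. That is 18.4% of the members. A further 4 (10.5%) were lower (P5CS1, GOLS1, GOLS2 and RD22), where 15% of all genes were lower. The log2 differences, cfh1 minus decoy, were 1.73 (SE 0.28, adjusted p = 0.00067) for HB7, 1.22 (SE 0.18, adjusted p = 0.000256) for AFP3 and -2.37 (SE 0.56, adjusted p = 0.00665) for GOLS2. Scaling by library totals gave 12 higher and 2 lower, with 28.4% and 6.14% of all genes, and DESeq2 gave 11 higher, with 18.3%. The count higher was 4 without decoy replicate 3 (17.9% of all genes) or without cfh1 replicate 3 (15.3%). It was 13 without PIF3 over-expression replicate 1, where 18.5% of all genes were higher. The count lower was 1 without decoy replicate 1, where 11.1% of all genes were lower. It was 2 without decoy replicate 3, cfh1 replicate 1, cfh1 replicate 2 or PIF3 over-expression replicate 3. In those fits 9.34% to 13.7% of all genes were lower. Against the PIF3 over-expression line, the cfh1 mutant had 32 members lower, where 5.7% of all genes were lower, and 0 higher, where 7.18% were higher. At those 0 higher calls, edgeR's unadjusted p was under 0.05 for 1 member, ERD5, and DESeq2 called 0. ABF1, ANAC055, ABR1, P5CS2, ERD5 and GOLS1 did not pass there. The median log2 difference of the members, cfh1 minus PIF3 over-expression, was -1.39 without PIF3 over-expression replicate 1. With any other library left out it ran from -2.18 to -1.89.

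Levels can be set across genes per kb of the longest annotated transcript. In Col-0 the order opened with ERD14, at 345 ± 49.3 CPM per kb (SD, n = 3), followed by RD22 at 149.6 ± 58.4, ERD10 at 102 ± 9.36, LTI30 at 70.1 ± 9.93 and RAB18 at 66.0 ± 97.5 CPM per kb. ERD14 stood beyond its spread from the rest, while RD22 and ERD10, and LTI30 and RAB18, did not. Without Col-0 replicate 3 the first 4 kept their order and RAB18 stood at 8.22 and 11.3 CPM per kb in the other 2 libraries, rank 17 of 38. With PIF3 over-expression RAB18 came first, at 1368 ± 1485 CPM per kb, with a spread that spans its neighbours, before ERD14 at 660.4 ± 30.5 and RD22 at 442 ± 76.8 CPM per kb. LEA7 moved from 15.8 ± 19.7 to 309.8 ± 338 and P5CS1 from 26.2 ± 15.5 to 256 ± 102 CPM per kb. When PIF3 over-expression replicate 1 was left out, ERD14 came first, at 684 and 626 CPM per kb in the other 2 libraries, and RAB18 second, at 482 and 539. LEA7 then stood at 83.6 and 148 CPM per kb and P5CS1 at 180.3 and 214, and without replicate 3 the Col-0 libraries had 4.13 and 4.76 for LEA7 and 15.1 and 19.6 for P5CS1. The bZIP factors were at 10.7 to 30.5 (ABF1 to ABF4) and 1.09 (ABI5) CPM per kb in Col-0.

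The spread between libraries of 1 genotype was uneven over the members. Over members with at least 30 counts in a genotype, 11 of 37 were more than 2 times as high in Col-0 replicate 3 as the mean of the other 2, against 1.11% of all genes. For PIF3 over-expression replicate 1 this held for 17 of 38 members, against 2.05% of all genes, and for cfh1 replicate 3 for 10 of 37, against 0.931%. Of the 11 members high in Col-0 replicate 3, 8 (72.7%) were also high in PIF3 over-expression replicate 1, where they made 47.1% of the list. RD29B, LEA7, LEA4-5, LTP3, LTP4 and TSPO were on all 3 lists. The overlap of such lists over all genes was not computed, so these shares have no baseline. The median ratio over members was 1.37 for Col-0 replicate 3, 1.21 for cfh1 replicate 3 and 1.81 for PIF3 over-expression replicate 1. The member most even by this measure was ERD14, whose highest ratio in any library was 1.25. What set these libraries apart was not tested.

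**Figure D4:**
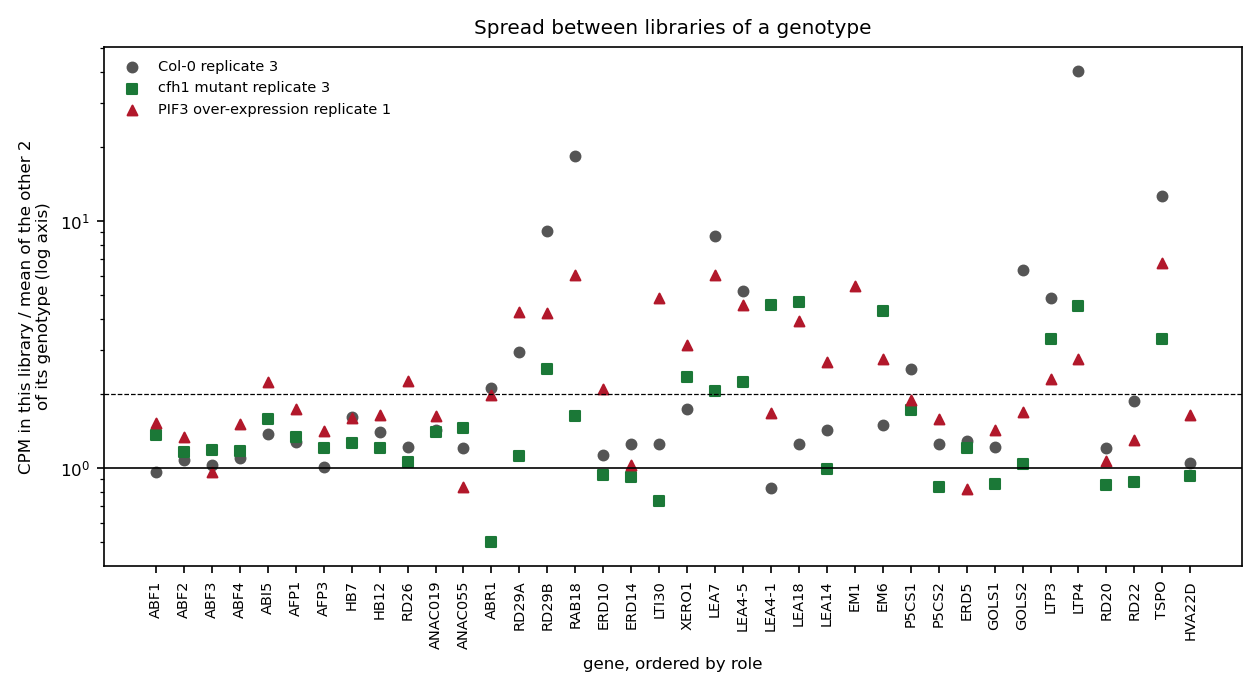
CPM in 1 library divided by the mean of the other 2 libraries of its genotype (log axis), for each gene (x axis, ordered by role) with at least 30 counts in that genotype. The solid line is at 1 and the dashed line at 2. Points of Col-0 replicate 3, cfh1 replicate 3 and PIF3 over-expression replicate 1 lie above the dashed line for 11, 10 and 17 genes.

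The other genes of the pathway were taken from a list of 54, of which 51 were tested. With PIF3 over-expression 22 were higher (43.1%, against 6% of all genes) and 8 lower (15.7%, against 7.32%). Leaving out PIF3 over-expression replicate 1 and Col-0 replicate 3, 14 were higher and 7 lower, against 2.41% and 2.11% of all genes. The decoy line had 6 higher (11.8%) and 9 lower (17.6%), below the 19.6% and 21.2% of all genes, and in the cfh1 mutant 0 were called in either direction, with 0 of them at an edgeR p under 0.05 before adjustment and 0 called with DESeq2. The median log2 fold change of the list was 0.55 with PIF3 over-expression, -0.02 in the decoy line and -0.06 in the cfh1 mutant, and that of all genes was 0.00 in each. All 8 clade A PP2C genes tested, which encode the phosphatases that hold the pathway off, rose with PIF3 over-expression. HAI3 went from 0.77 ± 0.731 CPM in Col-0 to 18.9 ± 19.5 (SD, n = 3), a log2 fold change of 4.65 (SE 0.77, adjusted p = 0.00364). HAI2 had 4.38 (SE 0.71, adjusted p = 0.00334) and HAI1 had 3.62 (SE 0.49, adjusted p = 0.00137). Of the 9 receptor genes 7 fell, PYR1, PYL1, PYL2, PYL4, PYL5, PYL6 and PYL8, with log2 fold changes from -2.01 (PYL6) to -0.55 (PYL1). Of the cold and drought relatives COR15A, a chloroplast protein that protects membranes, had 2.96 (SE 0.60, adjusted p = 0.00862) and KIN1 had 2.89 (SE 0.54, adjusted p = 0.0059). Those 5 genes had the largest called changes of the list in that line. With PIF3 over-expression replicate 1 and Col-0 replicate 3 left out, they had log2 fold changes of 4.47 (HAI3), 5.34 (HAI2), 3.92 (HAI1), 2.09 (COR15A) and 2.46 (KIN1), and each was called. In that fit 7 of 8 PP2C genes were higher and 6 of 9 receptor genes lower.

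For the decoy line the 5 largest called changes of the list were in CYP707A1, P5CR, DREB2A, RS5 and CYP707A3, and each kept its call without Col-0 replicate 3. CYP707A1, an enzyme that breaks ABA down, fell, with a log2 fold change of -1.83 (SE 0.28, adjusted p = 0.000304), and had 1.398 (SE 0.26, adjusted p = 0.00585) with PIF3 over-expression. CYP707A3, of the same family, had -0.94 (SE 0.19, adjusted p = 0.00234) in the decoy line. P5CR, which completes proline synthesis, rose, at 1.54 (SE 0.14, adjusted p = 4.08e-06), as did RS5, a raffinose synthase, at 1.06 (SE 0.22, adjusted p = 0.00237). DREB2A, a drought and heat factor that binds the dehydration-responsive element, fell from 5.23 ± 1.13 CPM in Col-0 to 1.90 ± 0.698 (SD, n = 3), at -1.42 (SE 0.37, adjusted p = 0.00958). NCED3, the enzyme that sets the pace of ABA synthesis in drought, had 2.25 (SE 0.29, adjusted p = 0.00117) with PIF3 over-expression and 0.20 (SE 0.29, adjusted p = 0.616) in the decoy line, and is named after its values were seen.

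**Figure D5:**
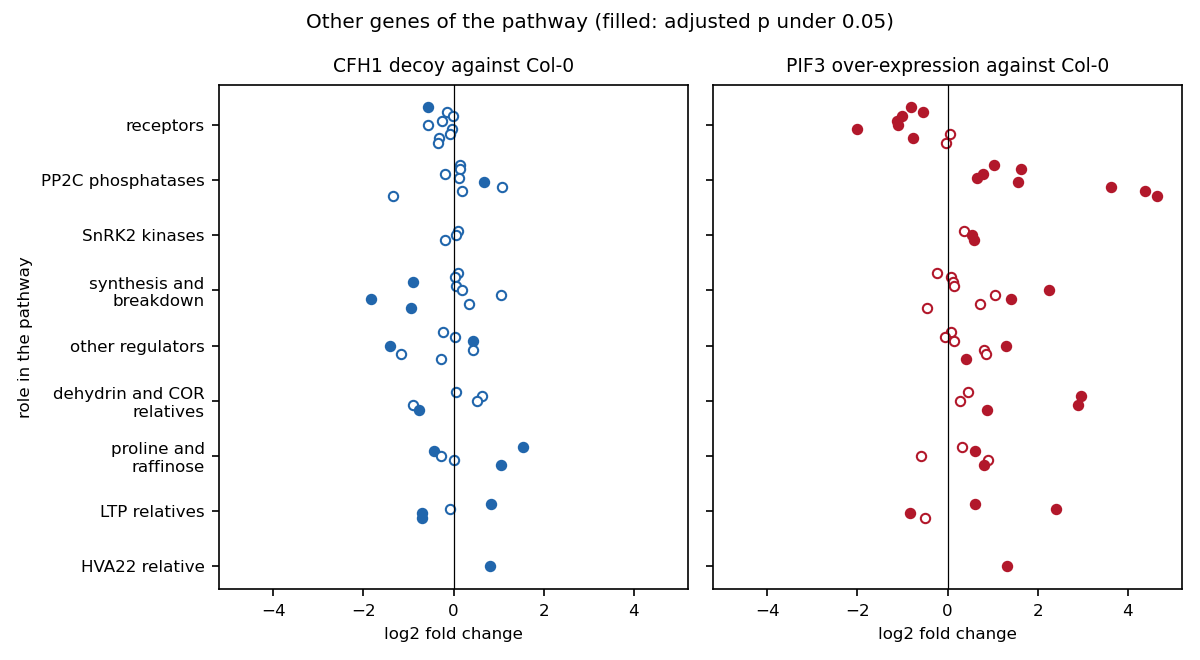
Log2 fold change against Col-0 (x axis) of the 51 tested genes of the pathway outside the 38, by role (rows), in the decoy line and the PIF3 over-expression line, filled where the adjusted p was under 0.05. With PIF3 over-expression the 8 PP2C genes lie above 0 and 7 of 9 receptor genes lie below 0 with filled points.

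Sums of tissue markers differed between the lines. The 4 leaf markers summed to 14160.0 to 22246 CPM with PIF3 over-expression, 26721 to 29953 in Col-0, 26493 to 29729 in the cfh1 mutant and 40683 to 58511 in the decoy line, and 4 of 4 were detected in every library. RBCS1A, LHCA1 and LHCB1.4 lay below Col-0 in every PIF3 over-expression library. LHCB1.3 overlapped Col-0, with 280473, 351593 and 451746 counts with PIF3 over-expression and 443919, 363480 and 443196 in Col-0. The 4 guard cell markers, all detected, summed to 40.5 to 56.7 CPM with PIF3 over-expression, 67.2 to 75.1 in Col-0, 62.6 to 65.7 in the cfh1 mutant and 28.5 to 47.8 in the decoy line. KAT1, FAMA and MYB60 carry that sum, and the scarcer SLAC1 lay the other way with PIF3 over-expression, at 4.75 ± 0.867 CPM against 3.72 ± 0.215 in Col-0 (SD, n = 3), without passing the test. The 6 root markers, all detected, summed to 3765 to 4791 CPM with PIF3 over-expression, 3263 to 4358 in Col-0, 3464 to 4397 in the cfh1 mutant and 5315 to 7006 in the decoy line. PYK10 makes up most of that sum, at 6091 ± 894 CPM in the decoy line and 3388 ± 595 in Col-0. Among the others PIP2;4 and EXPA7 were called lower in the decoy line, with log2 fold changes of -1.03 (SE 0.35, adjusted p = 0.034) and -1.38 (SE 0.38, adjusted p = 0.0122). With PIF3 over-expression BGLU21 was called higher, at 0.75 (SE 0.21, adjusted p = 0.0315), and the libraries of PIP2;4, AGP3 and EXPA7 lay above Col-0 without passing the test. The lowest leaf sum was that of PIF3 over-expression replicate 1, the library with the highest sum of the 38 members. The part of these markers in the members' values was not tested.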

How the data were processed

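The authors deposited estimated counts, read counts that need not be whole, for 27588 AGI locus codes in 12 libraries, of which 41.6% were fractional. Per the submitters' processing notes, the tools were StringTie 2.1.2, HISAT2 2.1.0 and Trimmomatic 0.39, with TAIR10 as build. The sources used here give neither their roles nor a strand setting. Counts were rounded to whole numbers, filtered with edgeR's filterByExpr by genotype (minimum count 10, leaving 21235 genes) and scaled with TMM factors in edgeR 4.0.16 (R 4.3.3). All 12 libraries entered a single quasi-likelihood fit in which each genotype had its own mean. Genotypes were compared in pairs, 2-sided, and p-values were adjusted by Benjamini-Hochberg over the 21235 genes, with a threshold of 0.05. CPM are scaled with the TMM factors, and means are given ± SD over 3 libraries. DESeq2 1.42.0 served as an alternative. The code was tested on simulated data.

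The members and the pathway and marker lists were chosen with earlier results of these data known. Members with an adjusted p under 0.05, a log2 fold change of 1 or more in size and libraries that do not overlap in at least 1 line against Col-0 have their value in every library; of the 54 pathway genes, up to 5 per line with the largest called change are named, and others named were chosen after their values were seen. A fold against a genotype at 0 counts uses a floor of 3 counts over the genotype, which covers counting error only. Names, coordinates and sequences come from the TAIR10.1 reference. Alternatives were other scaling, other filters, DESeq2, fewer genotypes in the fit, a replicate block and leaving out each library. No transcript of a member matched another gene's at 90% identity or more over 100 bases or more.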

Additional observations from a re-analysis of the deposited data

How the results depend on the processing

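Under every alternative run, 0 members were called in the cfh1 mutant against Col-0, and no called member changed sign. With each library left out in turn, members called higher with PIF3 over-expression against Col-0 ranged from 19 to 33 and those lower from 0 to 1; in the decoy line they ranged from 1 to 5 higher and from 5 to 13 lower, and between the cfh1 mutant and the decoy line from 4 to 13 higher and from 1 to 5 lower. For cfh1 lower than PIF3 over-expression the range was 22 to 34, and for the decoy line 31 to 34. Shares of all genes moved as well in these fits. With PIF3 over-expression against Col-0 they ran from 1.93% to 7.61% higher and from 2.15% to 10% lower. In the decoy line they were 13.2% to 20.7% higher and 16.1% to 23.3% lower. Between the cfh1 mutant and the decoy line they were 13.7% to 20.1% and 9.34% to 17.5%. Against PIF3 over-expression, 2.48% to 7.39% were lower in cfh1 and 19.1% to 24.7% in the decoy line. Another fit, chosen after seeing the data, left out Col-0 replicate 3 and PIF3 over-expression replicate 1 together. In it 5 members were higher in the decoy line than in Col-0, where 17.2% of all genes were higher. In the same fit 14 were higher in the cfh1 mutant than in the decoy line, where 17.7% of all genes were higher. Scaling by library totals gave 12 higher and 2 lower in the cfh1 mutant against the decoy line; this scaling moved the median log2 fold change of all genes by -0.25 in the decoy line against Col-0, by 0.23 in cfh1 against the decoy line, by -0.11 in cfh1 and by -0.34 in the decoy line against PIF3 over-expression, to which the members' changes there are relative. DESeq2 gave 11 higher in the cfh1 mutant against the decoy line (18.3% of all genes), and 1 lower (ERD5) with PIF3 over-expression (9.27%). The replicate block gave 1 lower (ERD5) with PIF3 over-expression, where 6.24% of all genes were lower, and 31 higher there (4.93%). In the decoy line it gave 4 higher (17.4% of all genes) and 10 lower (20.2%). The labels do not say whether a replicate number marks a shared batch. Deviations of same-numbered libraries correlated between -0.433 and 0.318 over all genes. In a comparison, 0 to 3 of 6 libraries correlated best with their own number. With 3 libraries per genotype these values cannot settle whether the numbers pair the samples. A fit without a library also has fewer samples, and the cause of a lost call was not tested. EM1, the member with the fewest counts, had 166 over all libraries.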
